A study of Mus musculus with 148 samples.

Results

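The genes Xcr1, Clec9a, Flt3, Cd209a, Ccr7, Fscn1, Ccl22 and Il4i1, known for marking subsets and maturation of dendritic cells (DC), were followed across a single-cell atlas of breast cancer lung metastasis in the mouse. They are 8 of the 52634 genes of the count files, and were taken by name. Single cells were sorted into plates and profiled by SPID-seq, a plate-based 3′ RNA-seq that tags each captured transcript with a unique molecular identifier (UMI). Of 23425 annotated immune cells in 27 labels, 943 (4.03%) carried a DC label: 499 were labeled cDC2, 254 cDC1, 117 migDC (migratory DC) and 73 pDC (plasmacytoid DC).

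All mice were female PA-GFP mice on C57BL/6, whose cells carry a photoactivatable GFP. Except for the control mice, they received EO771-tdTomato cells, 1 fluorescent mouse breast cancer line, in the mammary gland at 8 weeks of age, and the primary tumor was resected after 3 weeks unless it was itself sampled. The 63 samples (a sample is 1 tissue of 1 of 27 mice) were control lungs without tumor (3), Pre-MET lungs of mice that still bore their primary tumor (3), the primary tumors (4), lungs of mice that stayed relapse-free (6), lung tissue with metastases (13), distal normal tissue of metastasis-bearing lungs (14), photoactivated metastasis cores (13) and photoactivated invasive margins (7). Tissue without visible tdTomato may still hold tumor cells, since the fluorescent marker can be lost. Cells were sorted as CD31-negative and CD45-positive, or as CD31-negative and GFP-positive after photoactivation, so that the gate itself differed between tissues. It also differed within tissues. Relapse-free mice 6 and 7 gave plates sorted on CD45, on GFP, and on CD45 without GFP. The core of mouse 17 was sorted on GFP and CD45 together, and the other cores on GFP. Margins were taken by the status label, although other labels of the same plates differ: the area reads MET for 4 of the 7 margin mice, and the photoactivation target NON-MET for 1.

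Conventional DCs take up antigen and present it to T cells. The cDC1 subset cross-presents antigen to CD8 T cells and depends on Irf8 and Batf3, the cDC2 subset presents mainly to CD4 T cells, and pDCs secrete type I interferon. On maturation, conventional DCs of either subset turn on Ccr7, follow its ligands Ccl19 and Ccl21 to lymph nodes, and express a shared program of co-stimulatory, cytoskeletal and regulatory genes, so that subset markers can be lost in the mature state.

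Samples held 55 to 1974 immune cells and 48306 to 2745794 UMIs. The median DC had 1033 to 1865 UMIs in the lung tissues and 4865 in primary tumors, so a share of cells with a UMI is also given as calculated after thinning each cell to 500 UMIs. The background was read from neutrophil labels, which should lack these genes: of 3972 such cells (median 989 UMIs), 0 to 0.453% had a UMI of a member, with the highest share for Ccr7, and the 592 wells left empty held 1 member UMI in all, of Flt3. Levels are given as CPM, the UMIs of a gene in 1000000 UMIs, which count transcript ends and are not divided by gene length. The labels came from the authors' clustering of these same cells, so that levels across labels are a description without a test. Clusters were named with a curated list of marker genes, and the authors give Naaa for cDC1, Cd209a for cDC2, Ccr7 for migDC and Siglech for pDC. High levels of these genes in their labels thus follow in part from the naming. The gene lists used below were chosen with earlier results of these data known. All plates of the control lungs form 1 sequencing batch of their own, and batch and control cannot be told apart.

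The members lie on 6 chromosomes of mm10 (GENCODE vM21), and positions are given because reads of a gene that shares exons with a neighbor are uncertain. Xcr1, the receptor for Xcl1, lies on chromosome 9 from 123852315 to 123862029 on the minus strand. Clec9a, a receptor for dead cell material, lies on chromosome 6 from 129408862 to 129424763 on the plus strand and shares exon sequence with Clec1b. Flt3, the receptor for the DC growth factor Flt3l, lies on chromosome 5 from 147330741 to 147400489 on the minus strand, and Cd209a, a C-type lectin, on chromosome 8 from 3743397 to 3748984 on the minus strand. Among the maturation genes, Ccr7 lies on chromosome 11 from 99144196 to 99155077 on the minus strand, Fscn1 (the actin-bundling protein fascin) on chromosome 5 from 142960343 to 142973185 on the plus strand, and Ccl22 (a chemokine that binds Ccr4) on chromosome 8 from 94745590 to 94751699 on the plus strand. Il4i1, an amino acid oxidase, spans chromosome 7 from 44816387 to 44840809 on the plus strand. Its exons overlap Nup62 on the same strand and Atf5 and Tbc1d17 on the other, so its UMIs cannot all be assigned to it with certainty. Per the study's methods, exons shared on the same strand were counted under a joined gene symbol, with the UCSC annotation. Some UMIs of Il4i1, and of Clec9a, may thus be missing from their counts, which was not tested.

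Fscn1, Ccl22 and Il4i1 were each highest in migDC. The 250 bases before their RefSeq start (GRCm38.p6, plus strand, written 5′ to 3′) are shown here, with motif matches in capitals.
Fscn1 (chr5:142960105-142960354): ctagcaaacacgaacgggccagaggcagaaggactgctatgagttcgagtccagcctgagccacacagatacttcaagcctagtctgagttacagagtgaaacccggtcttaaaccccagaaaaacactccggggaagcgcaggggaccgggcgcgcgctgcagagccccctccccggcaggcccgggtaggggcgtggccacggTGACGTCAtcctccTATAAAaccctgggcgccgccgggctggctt
Ccl22 (chr8:94745434-94745683): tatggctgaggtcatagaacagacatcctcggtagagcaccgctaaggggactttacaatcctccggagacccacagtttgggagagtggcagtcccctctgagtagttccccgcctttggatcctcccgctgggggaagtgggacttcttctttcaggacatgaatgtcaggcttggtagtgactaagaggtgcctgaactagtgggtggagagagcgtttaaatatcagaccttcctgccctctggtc
Il4i1 (chr7:44836038-44836287): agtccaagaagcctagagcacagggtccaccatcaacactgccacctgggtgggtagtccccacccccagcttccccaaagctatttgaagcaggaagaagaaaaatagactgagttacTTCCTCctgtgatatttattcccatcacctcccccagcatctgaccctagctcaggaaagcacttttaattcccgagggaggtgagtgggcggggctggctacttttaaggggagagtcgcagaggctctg
The capitals mark TGACGTCA, the cAMP response element (CRE), from 45 to 38 bases and TATAAA, the TATA box, from 31 to 26 bases before the start of Fscn1. In Il4i1 they mark TTCCTC, the reverse of the PU.1 core GAGGAA, from 131 to 126 bases before a start that lies 19901 bases downstream of the GENCODE gene start. Windows of this length were searched on both strands in 7 of the 8 members (that of Ccr7 was not analysed here). CRE was held by 1.55% of 32851 windows and by 1 of the 7, TATAAA by 12.4% and by 4 (Fscn1 and, on the reverse strand, Cd209a, Clec9a and Xcr1), and GAGGAA by 23.3% and by 1. None of the 7 held the NF-kB pattern (GGG, 2 free bases, TT, 1 free base, CC, in 4.11% of windows), the AP-1 pattern TGANTCA (6.75%) or the interferon-stimulated response element (GAAA, 2 free bases, GAAA, in 2.98%). CRE and TATAAA were added to the search after the letters had been seen, and no pattern searched was shared by these 3 windows.

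**Figure D1:**
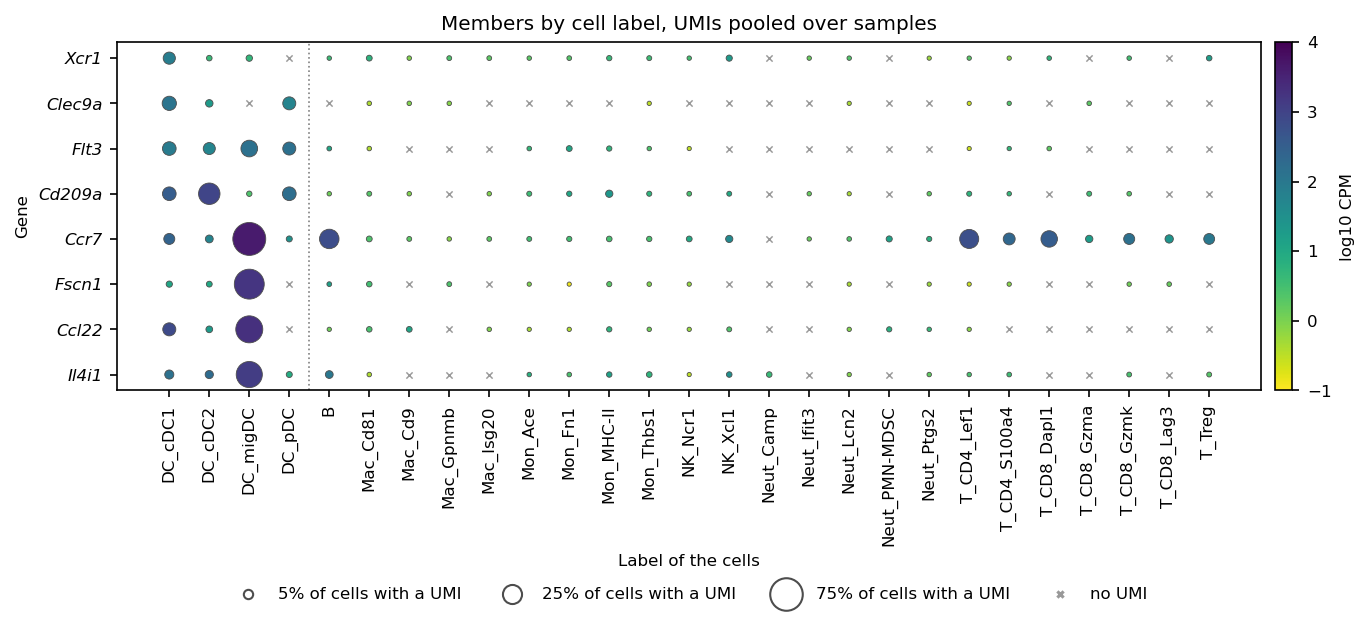
Pooled level (color, log10 CPM) and percent of cells with a UMI (area of the circle) of each member in the 27 immune labels, with crosses where no UMI was found. The 4 maturation genes stand out in migDC, at 1321 to 4313 CPM, and of them Ccr7 alone is also widespread in B and naive T cell labels.

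The maturation genes were concentrated in migDC. Ccr7 reached 4313 CPM there, with a UMI in 90 of 117 cells (76.9%, 95% exact Clopper-Pearson interval 68.2 to 84.2%, and 62.9% after thinning). Fscn1 reached 1656 CPM (63.2% of cells, interval 53.8 to 72.0%), Ccl22 2036 CPM (51.3%, interval 41.9 to 60.6%) and Il4i1 1321 CPM (47.9%, interval 38.5 to 57.3%). These intervals cover counting error only. Of all UMIs of the gene in immune cells, the 117 migDCs held 89.2% for Fscn1, 56.7% for Ccl22, 42.8% for Il4i1 and 25.9% for Ccr7, with the rest of the Ccr7 UMIs mostly in lymphocytes.

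Subset markers were nearly absent from migDC. No migDC had a UMI of Clec9a, which allows a share of up to 2.56% of cells and 7.55 CPM, Xcr1 gave 2 UMIs and Cd209a 1 UMI. The limit given for each count of 0 is 3 cells or UMIs of the total, and a 2-sided exact interval reaches somewhat higher. Flt3 was an exception among the subset genes, at 141 CPM with a UMI in 22 of 117 cells (18.8%). On the maturation side, cDC2 was low in 3 of the 4 genes, with 9.95 CPM of Fscn1, 18.7 CPM of Ccl22 and 55.3 CPM of Ccr7. In pDC, Fscn1 and Ccl22 had no UMI in 73 cells (up to 4.11% of cells and 12.6 CPM), Ccr7 had 7 UMIs in 1 cell and Il4i1 2 UMIs in 1 cell.

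Levels in single samples spread widely within migDC. Only primary tumors had samples with at least 10 migDCs, and in these 3 samples Ccr7 averaged 4139 ± 1086 CPM, Fscn1 1917 ± 735 CPM, Ccl22 1931 ± 937 CPM and Il4i1 830.0 ± 786 CPM (SD, n = 3). With 5 migDCs as the minimum, 8 samples remained. Their Ccr7 level was 2926, 4469, 5023 and 6425 CPM in 4 primary tumors, 3356 and 12363 CPM in metastases, 1598 CPM in a core and 2132 CPM in a relapse-free lung. Fscn1 ranged from 266 CPM in the core of mouse 30 to 2566 CPM in the primary tumor of mouse 38, and Ccl22 from 1344 CPM in that tumor to 7876 CPM in the metastasis of mouse 31, where 1 cell held 159 of the UMIs. Pooled over metastases, migDC had 4481 CPM of Ccl22 with that cell and 1309 CPM without it. Il4i1 ranged from 198 CPM in the primary tumor of mouse 9 to 2259.9 CPM in the metastasis of mouse 32. Each gene thus varied at least several-fold between samples of 1 label, primary tumors and other tissues overlapped in each, and all 8 samples had UMIs of all 4 genes.

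**Figure D2:**
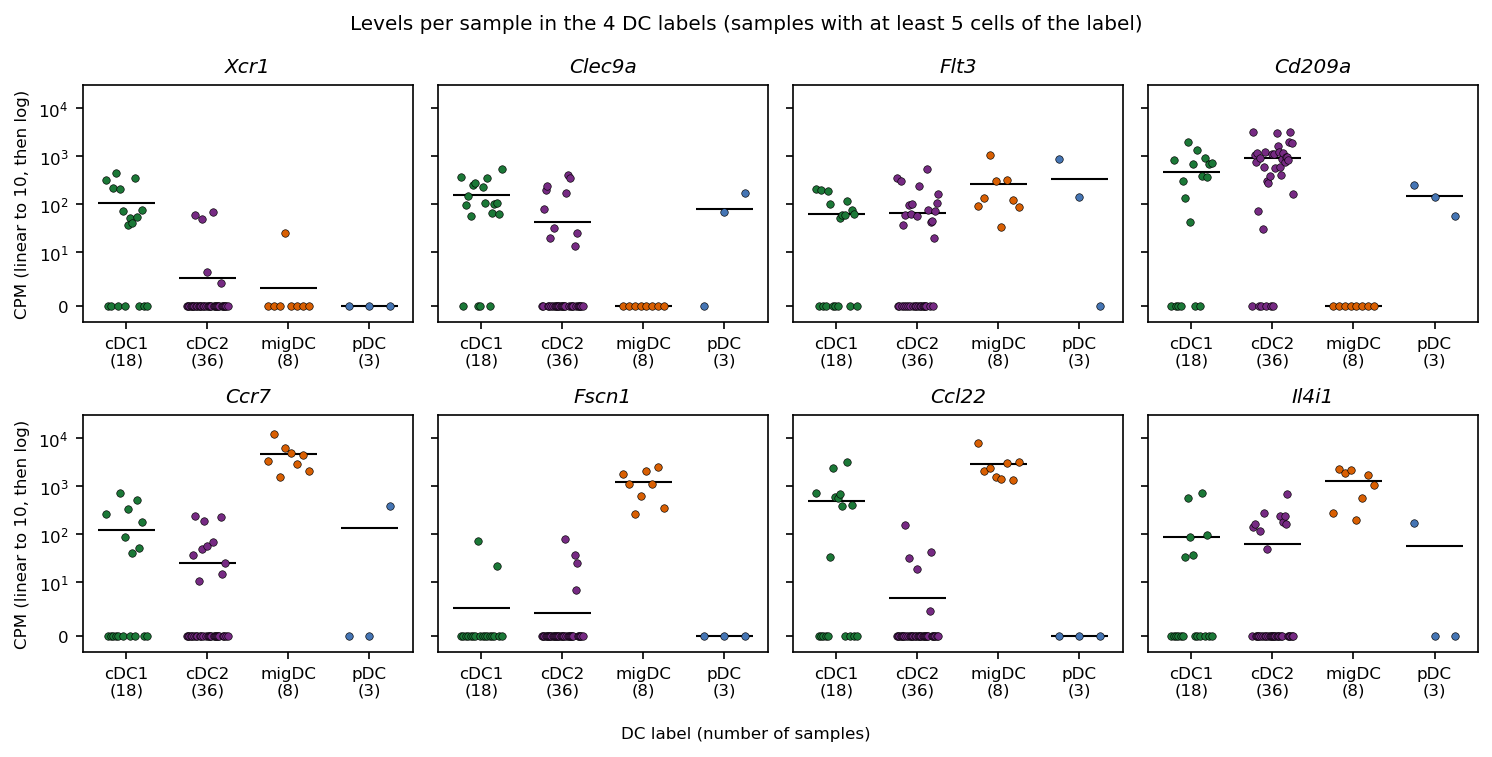
CPM of each member in each sample with at least 5 cells of a DC label (points, axis linear to 10 and log above), with the mean over samples as a horizontal line. Every migDC sample lies above every cDC2 sample for Ccr7, Fscn1 and Ccl22, whereas migDC and cDC2 overlap for Flt3 and Il4i1. For Ccl22, cDC1 samples reach into the migDC range, with 3162.5 CPM in the primary tumor of mouse 38 and 2470 CPM in the metastasis of mouse 36.

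Cells with UMIs of at least 2 of the 4 maturation genes were mostly migDCs. Of 117 migDCs, 27 had a UMI of all 4, 34 of 3, 30 of 2, 10 of 1 and 16 of none. The median UMI count was 4854 in cells with all 4 and 643.5 in cells with none, so that detection moved with depth. At least 2 of the 4 were found in 91 migDCs (77.8%), 19 of 254 cDC1 (7.48%), 6 of 499 cDC2 and 0 of 73 pDC. The shares expected if each gene were detected independently were not calculated. These counts therefore do not show that the genes occur together beyond their separate rates.

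**Figure D3:**
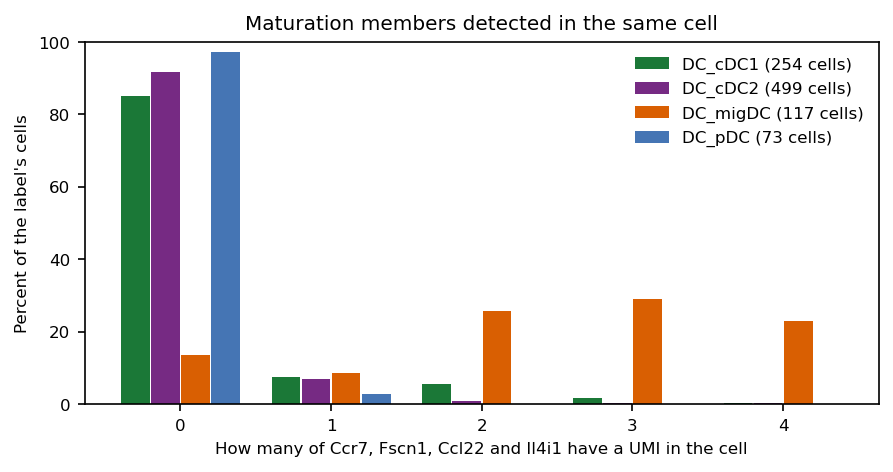
Percent of the cells of each DC label in which 0, 1, 2, 3 or all 4 of Ccr7, Fscn1, Ccl22 and Il4i1 had a UMI. Of migDCs, 77.8% lie at 2 or more, against 7.48% of cDC1.

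A wider list of 20 maturation genes, chosen with earlier results of these data known, followed the members. Its levels are therefore a description and no check of the label. All 20 were highest in migDC among the DC labels, and 17 were highest there among all 27 labels, the exceptions being Cd274, Pdcd1lg2 and Cd80, which were highest in the PMN-MDSC label of neutrophils. Their summed level was 15691 CPM in migDC, 2194 CPM in cDC1, 1443 CPM in cDC2 and 442 CPM in pDC. Tmem123 reached 3722 CPM, Marcksl1 2484 CPM, Il12b (a subunit of interleukin 12) 1615 CPM and Cd83, a surface marker of mature DCs, 1595 CPM in migDC. MHC class II transcripts were lower in migDC than in both conventional subsets, with H2-Ab1 at 5136 CPM in migDC, 26383 CPM in cDC1, 26298 CPM in cDC2 and 2288 CPM in pDC. Markers of other cells were low in the migDC label, with T cell markers summing to 70.5 CPM against 4508 CPM in CD4 T cells of the Lef1 label, and B cell markers to 15.1 CPM against 4544 CPM in B cells. Of the Ccr7-positive migDCs, 9 of 90 had a UMI of a T cell marker, against 5 of 27 Ccr7-negative migDCs. A UMI of a B cell marker was found in 3 of 90 Ccr7-positive and 0 of 27 Ccr7-negative migDCs, in 3 of 19 against 2 of 235 cDC1, and in 3 of 16 against 12 of 483 cDC2. The part of B cell RNA in the Ccr7 level of these cells was not tested.

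By tissue, migDCs made up 28.7% of DCs in primary tumors (49 of 171), 12.1% in metastases (22 of 182), 11.6% in margins (5 of 43), 11.1% in control lungs (7 of 63), 8.04% in cores (16 of 199), 7.74% in relapse-free lungs (12 of 155), 5.38% in distal normal tissue (5 of 93) and 2.70% in Pre-MET lungs (1 of 37). Pooled Ccr7 in these cells lay between 1129 CPM in control lungs and 6265 CPM in metastases, leaving aside the single Pre-MET cell. The 7 migDCs of control lungs held 16 UMIs of Ccl22 (2007 CPM, and 591 CPM without 1 cell of mouse 1 that held 12 of them) but no Il4i1, which allows up to 376 CPM at their depth. These shares and levels rest on 1 to 49 cells per tissue, and their differences were not tested.

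The cDC1 label held the highest Clec9a and Xcr1 of all 27 labels, but few of its cells showed either. Clec9a reached 121 CPM, with a UMI in 34 of 254 cells (13.4%, interval 9.45 to 18.2%), and Xcr1 78.3 CPM, with a UMI in 24 cells (9.45%, interval 6.15 to 13.7%). After thinning, the shares were 5.24% and 2.28%, far above the shares in neutrophil labels (0.0252% and 0.126%). The label held 60.7% of all Clec9a UMIs in immune cells and 29.1% of all Xcr1 UMIs, the latter being scattered at low counts over 22 labels, with 19.5 CPM in NK cells of the Xcl1 label (8 UMIs in 3 cells) and 16.7 CPM in regulatory T cells (8 UMIs in 2 cells). Clec9a was found at 54.8 CPM in pDC (8 of 73 cells) and at 19.9 CPM in cDC2 (14 of 499 cells). Of the 13 genes of the cDC1 program, 12 were highest in cDC1 among DC labels, led by Ppt1 at 1025 CPM and Naaa at 720.3 CPM, and Irf8 was highest in pDC at 1690 CPM.

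The same label also held genes of other states. Ccl22 reached 745 CPM in cDC1 (28 of 254 cells), Cd209a 353 CPM (31 cells), Ccr7 270.5 CPM (19 cells) and Il4i1 141 CPM (12 cells), whereas Fscn1 was found in 4 cells at 11.4 CPM. Single cells weighed heavily: 1 cell of the primary tumor of mouse 38 held 176 of the 523 Ccl22 UMIs and 67 of the 99 Il4i1 UMIs, and the label's levels without the leading cell were 521 CPM for Ccl22 and 48.0 CPM for Il4i1. Ccl17, the other ligand of Ccr4, was highest in cDC1 of all labels, at 5014 CPM with a UMI in 97 cells (38.2%), against 908 CPM in migDC.

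Few cells of the label had Xcr1 or Clec9a together with Cd209a or Ccl22. Of the 254 cells, 43 had a UMI of Xcr1 or Clec9a and of neither Cd209a nor Ccl22, 52 had Cd209a or Ccl22 alone, 4 had both kinds and 155 had none. The number with both kinds expected from separate detection was not calculated. All 13 genes of the cDC1 program had higher levels in the first group than in the second, with summed levels of 8446 against 1011 CPM. Ppt1, a lysosomal enzyme, stood at 2597 against 135 CPM, Naaa at 1337 against 227 CPM, Irf8 at 1225 against 157 CPM and Wdfy4, needed for cross-presentation, at 601 against 119 CPM. The cDC2 program ran the other way in 8 of 10 genes (353 against 3088 CPM in sum), among them the lectin Mgl2 at 130 against 1260.2 CPM. So did 17 of 20 maturation genes (830.4 against 4429 CPM in sum), with Cd83 at 135 against 979 CPM and Il12b without a UMI against 589.5 CPM. Ccl17 stood at 830.4 against 14094 CPM. Ccr7 and Il4i1 had no UMI (up to 17.7 CPM each) in the 43 cells, which were chosen to lack Ccl22, and 416 and 525 CPM in the 52, or 296 and 202 CPM without the cell that held most UMIs of each. The 4 cells with both kinds had 378 CPM of Ccr7 (14 UMIs in 1 cell), no Il4i1 (up to 81.0 CPM), 756 CPM of Cd83 (28 UMIs in 2 cells), 432 CPM of Il12b (16 UMIs in 1 cell) and 5829 CPM of Ccl17. Of the 37055 UMIs of these 4 cells, 27617 came from 1 primary tumor cell. The group of 52 cells was itself mixed: 29 had Cd209a and 26 had Ccl22, so most had only 1 of these genes. In it, 3 primary tumor cells gave 59215 of the 184898 UMIs. Cd83 was found in 21 of the 52 cells and Il12b in 8. Levels of these 2 genes, Mgl2 and Ccl17 without their leading cells were not calculated. The cells were divided by members and the label by clustering on all genes, so these contrasts are given without a test. The 155 cells without any of the 4 genes were shallower, with a median of 1171 UMIs against 2714 and 2414 in the 2 groups, and their cDC1 program summed to 4406 CPM. The cDC1 program was thus uneven within the label. In the second group its summed level was lower, and Tlr3 and Snx22 had no UMI there (up to 16.2 CPM each). Cells of the label are called cDC1-labeled here.

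**Figure D4:**
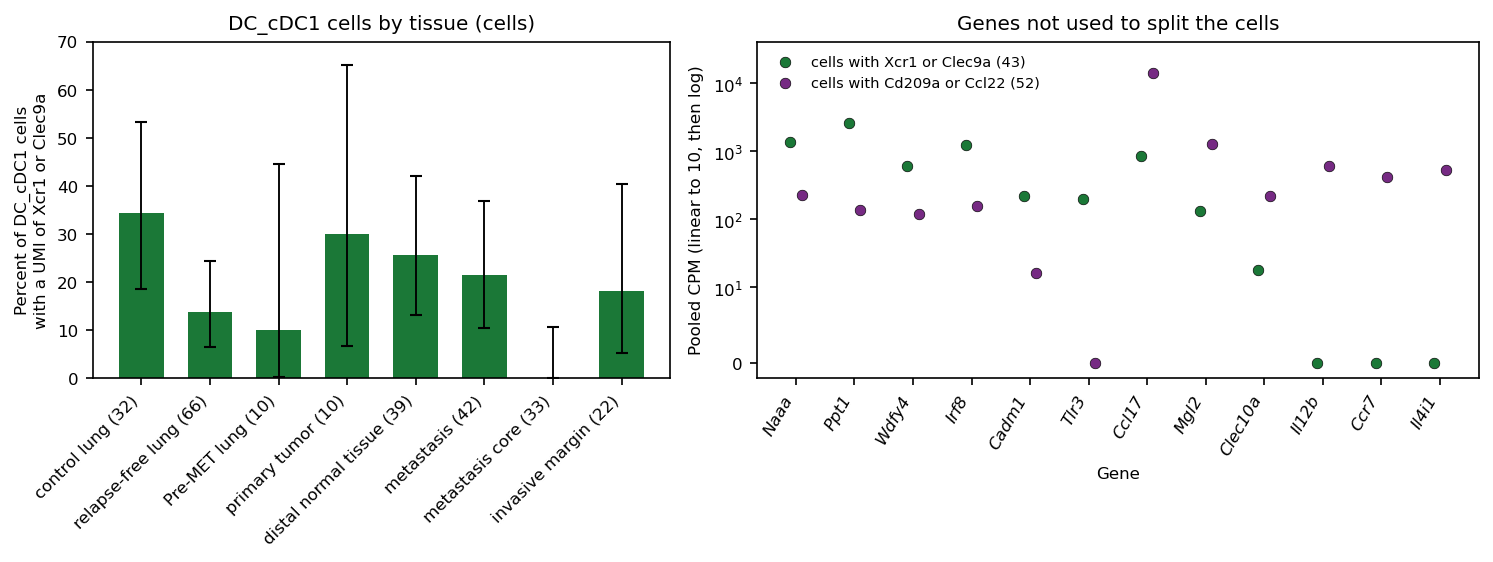
Left, percent of cDC1-labeled cells with a UMI of Xcr1 or Clec9a by tissue (bars, with 95% exact intervals for counting error and the number of cells in parentheses). Right, pooled CPM of 12 genes that did not divide the cells (axis linear to 10 and log above) in cDC1-labeled cells with Xcr1 or Clec9a and in those with Cd209a or Ccl22. The core is the tissue at 0, and the cDC1 genes and the Ccl17, cDC2 and maturation genes lie on opposite sides.

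No cDC1-labeled cell of a metastasis core had a UMI of Xcr1 or Clec9a. The cores gave 33 such cells in 10 samples, with 60459 UMIs in all, so that a share of up to 9.09% of cells and a level of up to 49.6 CPM remain possible for each gene by the limit of 3 counts, and a share of up to 10.6% by the 2-sided exact interval. The share was 34.4% in control lungs (11 of 32), 30% in primary tumors (3 of 10), 25.6% in distal normal tissue (10 of 39), 21.4% in metastases (9 of 42), 18.2% in invasive margins (4 of 22), 13.6% in relapse-free lungs (9 of 66) and 10% in Pre-MET lungs (1 of 10). After thinning it ranged from 2.68% in Pre-MET lungs to 11.9% in control lungs in these 7 tissues. Over samples, a cell with Xcr1 or Clec9a was found in 0 of 10 cores, 3 of 3 control lungs, 2 of 3 primary tumors, 6 of 13 samples of distal normal tissue, 5 of 11 metastases, 3 of 7 margins, 4 of 6 relapse-free lungs and 1 of 3 Pre-MET lungs. The samples differ in size: apart from mouse 30 with 13, the cores held 1 to 3 cDC1-labeled cells each, and the control lungs 8 to 16. The median cell had 1329 UMIs in cores, 1036 in distal normal tissue and 1091 in Pre-MET lungs, and 1457.5 to 11929.5 in the other 5 tissues. The difference between tissues, and the part of depth in it, was not tested.

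The core cells also had lower levels of every gene of the cDC1 program than cDC1-labeled cells elsewhere, 1770 against 4695 CPM in sum. The share of cells with a UMI was instead higher in cores for Rab7b (18.2 against 15.4%) and Batf3 (15.2 against 14.5%). It was lower for the other genes of the program. Cadm1, Tlr3 and Snx22 had no UMI in the core (up to 49.6 CPM), against 96.6, 85.7 and 77.9 CPM elsewhere. The cDC2 program did not move one way, with 5 genes lower and 5 higher. Ccl22 was found in 11 of 33 core cells (33.3%) and in 17 of 221 other cells (7.69%), at 777 and 741 CPM. The latter level held 292 of its 476 UMIs in 5 cells of the primary tumor of mouse 38, and was 335 CPM without that sample. Ccl17 stood at 6169 and 4905 CPM, and Cd209a gave 1 UMI in the core against 385 CPM elsewhere. Of the 33 cells, 13 came from the core of mouse 30, and without them 0 of 20 cells had Xcr1 or Clec9a, which allows up to 15%. Ccr7 in the core cells (1406 CPM, against 164 CPM elsewhere and 106 CPM there without the same tumor) rested on 1 cell of mouse 17 with 73 of its 85 UMIs, and was 222 CPM without that cell. Since the tissues may differ in which cells carry the label, a change of gene level within a cell type and a change of the cells labeled cDC1 cannot be told apart.

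Cd209a marked cDC2. It reached 958 CPM, with a UMI in 159 of 499 cells (31.9%, interval 27.8 to 36.2%, and 20.4% after thinning), and cDC2 held 74.6% of its UMIs among immune cells. The lectin was next highest in cDC1-labeled cells (353 CPM) and pDC (160.1 CPM, with 22 of 38 UMIs in 1 cell), and no label outside the DCs was above 22.2 CPM, the level of MHC-II monocytes. Over the 36 samples with at least 5 cDC2 it averaged 908.8 ± 888 CPM (SD), and 6 of these samples had no UMI. Of the 10 other genes of the cDC2 program, 4 were highest in cDC2 among the DC labels, among them Cd209d at 111 CPM, whereas Mgl2 was higher in cDC1-labeled cells (414 against 361 CPM) and Clec10a in pDC (215 against 156 CPM). Monocyte and macrophage markers summed to 1787 CPM in cDC2, the highest of the DC labels, against 19002 CPM in MHC-II monocytes.

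Pooled Cd209a in cDC2 was 2012 CPM in relapse-free lungs, 1973 CPM in control lungs, 947 CPM in distal normal tissue, 940.5 CPM in primary tumors, 835 CPM in cores, 789 CPM in margins, 625 CPM in Pre-MET lungs and 464 CPM in metastases. Few cells gave some of these levels, with 18 cDC2 each in control and Pre-MET lungs and 14 in margins. In the primary tumors it was even between mice, at 748, 968, 989 and 1185 CPM. In the 9 metastases it spread from 0 in 3 samples to 1217 CPM, with a median of 72.8 CPM, and in the 4 samples of distal normal tissue from 0 to 3210 CPM (median 914 CPM). The difference between the latter 2 was -1.24 on the log2 scale (SE 0.69) and did not pass the test (edgeR's quasi-likelihood test with Benjamini-Hochberg adjustment, adjusted p = 0.42), in a comparison that called 0.985% of 1523 genes and had 13.7% at an unadjusted p under 0.05. In the batches that held both tissues, the means were 2130.1 CPM (n = 2) against 708 CPM (n = 3), and 778 CPM (n = 1) against 15.5 CPM (n = 2).

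Cores had 0, 0, 282, 301, 381, 1097 and 1119 CPM of Cd209a in cDC2, overlapping with primary tumors. The core value pooled over cells rested on mouse 28, which gave 66 of the 137 cells and 178 of the 202 UMIs. The difference from primary tumors was -1.12 on the log2 scale (SE 0.68, edgeR adjusted p = 0.68), and edgeR called 0% of the 1523 genes, with 130 (8.54%) at an unadjusted p under 0.05 and 15 called by DESeq2. In the 1 batch with both tissues, a primary tumor had 1185 CPM and a core 1097 CPM.

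Il4i1 in cDC2 had too few UMIs for the test between the same tissues. The 4 primary tumors had 162, 182, 245 and 691 CPM, whereas 6 of 7 cores had no UMI and the core of mouse 23 had 1 UMI (50.2 CPM). These samples, of at least 5 cDC2, did not overlap, as was so for 3.48% of the genes tested, and Il4i1 was not among those. In 5 of the 6 cores at 0, 3 UMIs would have amounted to 235 to 846 CPM, above or within the range of the primary tumors. None of these 5 could alone be set below every primary tumor at its depth, and their joint level was not calculated. The core of mouse 28 was deep enough to allow at most 18.9 CPM. A further core, of mouse 17, had fewer than 5 cDC2 and held 8 Il4i1 UMIs in 1 of them, and the only cDC2 of the core of mouse 27 held 2. Of the 299 Il4i1 UMIs in cDC2, 251 came from 10 cells of primary tumors and 128 from 1 of these, and the label's level was 186 CPM with that cell and 109 CPM without it.

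Flt3, which DC progenitors and conventional DCs share, varied least between the DC labels. It stood at 152 CPM in pDC, 141 CPM in migDC, 85.4 CPM in cDC1-labeled cells and 53.5 CPM in cDC2, and the highest label outside the DCs was Fn1 monocytes at 10.8 CPM, followed by B cells at 10.3 CPM. The shares of cells with a UMI were 11.0% in pDC (8 of 73), 18.8% in migDC, 12.2% in cDC1-labeled cells (31 of 254) and 9.22% in cDC2 (46 of 499), and after thinning 4.88, 6.26, 3.62 and 2.06%. In pDC 1 cell held 16 of the 36 UMIs. Of the list for pDC, 9 of 10 genes were highest in the pDC label among DC labels, led by Siglech at 2360 CPM. B cell markers were higher in pDC than in the other DC labels, at 426 CPM in sum.

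Outside the DCs, Ccr7 was the member with the widest presence. It stood at 694 CPM in B cells (275 of 1055 cells, 26.1%), 634 CPM in Lef1 CD4 T cells (753 of 3026, 24.9%), 344 CPM in Dapl1 CD8 T cells (69 of 377, 18.3%), 228 CPM in S100a4 CD4 T cells and 146 CPM in Gzmk CD8 T cells. Over samples with at least 10 cells the level was 705 ± 503 CPM in B cells (n = 30), 601 ± 428 CPM in Lef1 CD4 T cells (n = 46) and 385 ± 235 CPM in Dapl1 CD8 T cells (n = 9), which did not differ beyond their spread. Every one of these lymphocyte samples was below the 3 migDC samples of that size, all of them primary tumors. Smaller migDC samples, of at least 5 cells, were not all higher: a core had 1598 CPM and a relapse-free lung 2132 CPM. Naive T cells of 1 metastasis (Lef1 CD4 and Dapl1 CD8 labels summed) reached 2389 CPM. Because lymphocytes are more numerous, Lef1 CD4 T cells held 37.7% of all Ccr7 UMIs in immune cells, B cells 16.3% and the DC labels together 30.2%.

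Il4i1 was the other member with a level in lymphocytes, at 106 CPM in B cells (33 of 1055 cells). The 1011 CPM of B cells in cores came from 38 UMIs in 1 cell of mouse 17. Fscn1 and Ccl22 were nearly restricted to DCs among immune cells, with at most 14.8 CPM (B cells) and 11.7 CPM (Cd9 macrophages) in another label. Of the partners, Xcl1, the ligand of Xcr1, was highest in the Xcl1 NK label at 2684 CPM, the Ccl22 and Ccl17 receptor Ccr4 in regulatory T cells at 77.3 CPM, and Flt3l in S100a4 CD4 T cells at 90.9 CPM. The Ccr7 ligands Ccl19 and Ccl21a, known products of stromal cells, were at most 1.80 CPM in any label.

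Across the 27 labels, the genes whose log2 level most resembled each member (Pearson correlation of log2(CPM + 1) over pooled labels, 14026 genes, given as a description since labels share libraries and clustering) were the following. Ccl22 was most like Il12b (r = 0.91), Timd4 and Strip2, Flt3 most like Upb1 (0.89), Kmo and H2-Eb2, and Fscn1 most like Bcl2l14 (0.87), Nudt17 and H2-Eb2. Il4i1 was most like H2-Eb2 (0.85), Grasp and Flt3, and Ccr7 most like Gramd3 (0.83), Gm45051 and P2ry10. Clec9a and Cd209a were each other's most similar gene (0.82), followed by Cd209d in both. Xcr1 had the weakest likeness, to Alg13 (0.71), Gm14679 and Oxld1.

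Tissue effects were tested on the UMIs of all DCs summed per sample, for samples with at least 10 DCs. In such sums, fewer cells of a subset and less RNA per cell cannot be told apart. Of the 8 members, 6 passed the filter on low counts, and Xcr1 and Flt3 did not. No member passed the test in any of the 4 comparisons made on DC sums, and in each of them the ranges of all 6 overlapped between the tissues.

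**Figure D5:**
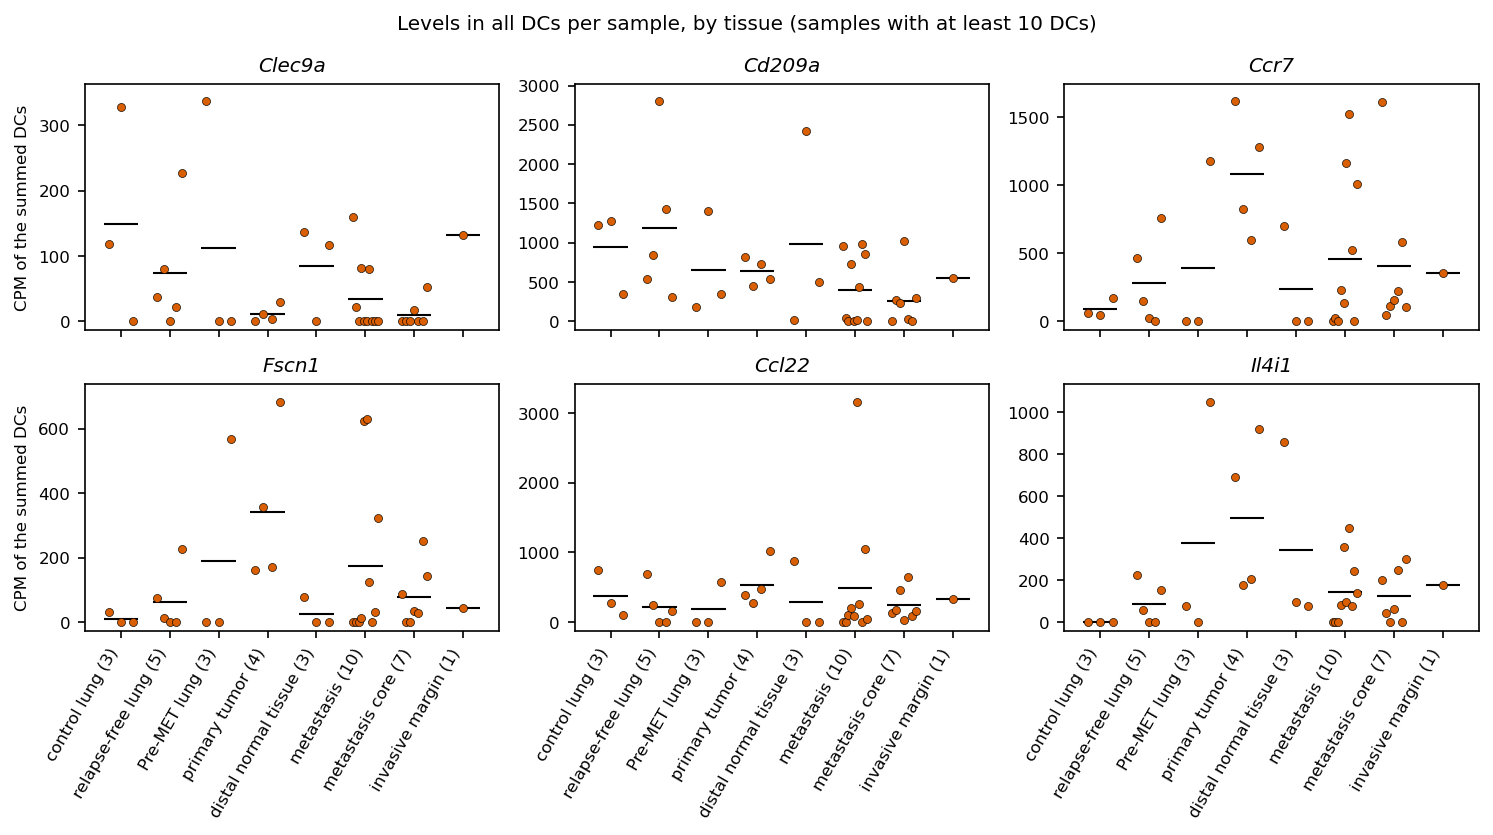
CPM of the 6 members tested in the summed DCs of each sample (points) with the mean per tissue as a horizontal line, and the number of samples with at least 10 DCs in parentheses. The 4 primary tumors lie between 599.6 and 1616 CPM of Ccr7, a range that at least 1 sample each of metastasis, core, distal normal tissue, relapse-free and Pre-MET lung reaches as well.

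Distal normal tissue (n = 3) and metastasis (n = 10) were compared first, the parts of metastasis-bearing lungs without and with visible lesions. Ccr7 was 0, 0 and 702 CPM in distal normal tissue and from 0 to 1526 CPM (median 182 CPM) in metastases. Ccl22 was 0, 0 and 877 CPM against 0 to 3159 CPM (median 91.9 CPM), and Cd209a 19.5, 504 and 2423 CPM against 0 to 979 CPM (median 239 CPM). Ccr7 and Ccl22 in distal normal tissue thus came from 1 sample, that of mouse 17, in which Il4i1 stood at 858 CPM, against 77.5 and 93.2 CPM in the others. The log2 differences ran from -1.38 (SE 1.18) for Clec9a to 2.15 (SE 1.34) for Fscn1, with edgeR adjusted p between 0.59 and 0.89. Without the metastasis of mouse 31 the Ccl22 difference was -0.71 instead of 0.66, and without distal normal tissue of mouse 23 that of Cd209a was 0.79 instead of -0.79. Neither edgeR nor DESeq2 called any of 4315 genes (0%), of which 385 (8.92%) had an unadjusted p under 0.05 in edgeR, none of them a member. In the batch that held both tissues, Cd209a averaged 1463 CPM in 2 samples of distal normal tissue and 562 CPM in 3 metastases. Ccr7 averaged 0 and 76.8 CPM in the same samples.

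Primary tumor (n = 4) and metastasis core (n = 7) were compared as lesions at 2 sites. The primary tumors were sorted on CD45 and the cores on GFP, with CD45 added in mouse 17. Per the study's methods, tumors and lungs were also dissociated with different programs. Site, gate and dissociation cannot be told apart here, nor between cDC2 or naive T cells of these 2 tissues. Fscn1 was 161, 169.5, 357 and 683 CPM in primary tumors and from 0 to 251 CPM (median 34.4 CPM) in cores. Il4i1 was 177, 204, 689 and 920.3 CPM against 0 to 301 CPM (median 63.0 CPM), and Ccr7 599.6, 825, 1283 and 1616 CPM against 44.5 to 1611 CPM (median 155 CPM). Below all primary tumors were 6 of 7 cores for Fscn1, 4 for Il4i1 and 6 for Ccr7, and the others reached into their range. Fscn1 differed by -2.27 (SE 0.94, unadjusted p = 0.019) and Il4i1 by -1.78 (SE 0.82, unadjusted p = 0.035) on the log2 scale, and neither held after adjustment (edgeR adjusted p = 0.42 and 0.51). EdgeR called 11 of 4315 genes (0.255%), and 8.85% had an unadjusted p under 0.05, the share against which the 2 of 6 members are to be read. The median log2 difference was -1.60 over the 6 members and -0.37 over all genes, and 14 of 15 tested genes of the maturation list were lower in cores (median -1.32), none past the test. Most other DC lists ran the same way. In the cDC2 program 8 of 9 genes were lower (median -1.14) and in the pDC program 10 of 10 (-1.17). In the pan-DC and MHC class II list 7 of 7 were lower (-0.60). The direction was thus not particular to the maturation genes. Of the cDC1 program 8 of 11 were lower, but its median of -0.18 lay above that of all genes. The core with the highest Ccr7 was that of mouse 17, where all 73 UMIs came from the single cDC1-labeled cell named above. In the batch that held both tissues, 1 primary tumor and 1 core had 161 and 141 CPM of Fscn1 and 1616 and 106 CPM of Ccr7.

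A neutrophil transcript moved with this comparison. S100a8 was higher in core DCs by 4.86 on the log2 scale (SE 1.03, edgeR adjusted p = 0.018). Its call was lost without any 1 of the 4 primary tumors or the core of mouse 17 (highest edgeR adjusted p = 0.21), and without any 1 of these tumors edgeR called no gene, with 252 to 319 at an unadjusted p under 0.05. The neutrophil markers in pooled DCs summed to 8.57 CPM in primary tumors against 340.0 CPM in cores. The share of migDCs among the DCs moved with it too, from 28.7% to 8.04%. Their part in the differences of the members was not tested.

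Control lung (n = 3) and Pre-MET lung (n = 3) were compared for changes before metastasis. Il4i1 had no UMI in the 3 control lungs and 0, 74.9 and 1049 CPM in Pre-MET lungs, and Fscn1 was 0, 0 and 29.7 CPM against 0, 0 and 568 CPM. The high value was in both cases that of mouse 10, whose single migDC held 24 of the 24 Il4i1 and 13 of the 13 Fscn1 UMIs. Fscn1 differed by 4.14 on the log2 scale (SE 1.82, edgeR adjusted p = 0.35), and Il4i1 had an edgeR adjusted p of 0.31. Without mouse 10 the Fscn1 difference was -2.35, a fitted value against Pre-MET lungs at 0 that is no bound. Neither edgeR nor DESeq2 called any of 4315 genes (0%), and 540 (12.5%) had an unadjusted p under 0.05 in edgeR, among them Fscn1 and Il4i1. No batch held both tissues. Cd209a was 348, 1220 and 1282 CPM against 187, 350 and 1408 CPM (log2 difference -0.99, SE 1.10).

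Pre-MET lung (n = 3) and primary tumor (n = 4) were compared in mice that bore the tumor, of which 3 gave both tissues. Ccr7 was 0, 0 and 1180.1 CPM in Pre-MET lungs and at least 599.6 CPM in every primary tumor, a log2 difference of 2.03 (SE 1.20, edgeR adjusted p = 0.31). With the mouse as a block, in the 3 mice, the difference was 2.82 (edgeR adjusted p = 0.18), and edgeR called 71 of 1629 genes (4.36%), against 114 of 4315 (2.64%) without the block and with all 7 samples. Leaving out 1 sample at a time, it called 27 to 70 genes, the fewest without the Pre-MET lung of mouse 9. Ccl22 was 0, 0 and 568 CPM against 266 to 1019 CPM (2.10, SE 1.33, edgeR adjusted p = 0.34). Over all alternatives the Ccr7 difference ran from 1.36 to 9.50 and that of Ccl22 from 1.41 to 8.50, the highest without the Pre-MET lung of mouse 10, which leaves that tissue at 0, so that these fitted values are no bounds. Of all genes, 22.1% had an unadjusted p under 0.05, and no member did. All 15 tested genes of the maturation list were higher in primary tumors (median 2.26, against 0.76 over all genes), none past the test. So were 8 of 9 genes of the cDC2 program (median 1.74), 7 of 7 of the pan-DC and MHC class II list (1.40) and both B cell markers tested (3.85), against 7 of 11 of the cDC1 program (0.09) and 7 of 10 of the pDC program (0.14). The share of migDCs among the DCs moved with the comparison, from 1 of 37 cells in Pre-MET lungs to 49 of 171 in primary tumors, and its part was not tested. The neutrophil genes S100a8 and S100a9 were lower in tumor DCs, by -4.87 and -4.61 on the log2 scale (edgeR adjusted p = 0.015 and 0.032), whereas Irf7, an interferon regulatory factor, rose by 3.25 (edgeR adjusted p = 0.045). With the mouse as a block Irf7 no longer passed (2.87, edgeR adjusted p = 0.15). Its call was also lost with DESeq2 size factors, without the filter, with the other minimum of cells and on leaving out any 1 of the 7 samples, and that of S100a9 on leaving out any but the primary tumor of mouse 8 (highest edgeR adjusted p = 0.17 for each), and that of S100a8 without the Pre-MET lung of mouse 9 or the primary tumor of mouse 38 (0.14). No batch held both tissues, and tumors and lungs were dissociated with different programs. Batch, dissociation and tissue thus cannot be told apart here.

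Ccr7 was also tested in naive T cells (Lef1 CD4 and Dapl1 CD8 labels summed), which carry it at rest. It ranged from 117 to 795 CPM (median 518 CPM) in distal normal tissue (n = 11) and from 228 to 2389 CPM (median 478 CPM) in metastases (n = 9), a log2 difference of 0.61 (SE 0.40, edgeR adjusted p = 0.99). Here neither edgeR nor DESeq2 called any of 1992 genes (0%), and 94 (4.72%) had an unadjusted p under 0.05 in edgeR. With the mouse as a block the difference was 0.13. In the 3 batches that held both tissues the means were 426 and 311 CPM, 512 and 795 CPM, and 765 and 936 CPM. Between primary tumors (88.5 to 655 CPM, median 463 CPM, n = 4) and cores (0 to 1411 CPM, median 336 CPM, n = 10) the difference was 0.32 (SE 0.53, edgeR adjusted p = 0.84), and turned to -0.050 without the core of mouse 36 and to -0.018 without the primary tumor of mouse 10. In this comparison edgeR called 0.552% of genes and 13.5% had an unadjusted p under 0.05. S100a8 and S100a9 were among the called genes, higher in cores by 5.85 and 6.93 on the log2 scale (edgeR adjusted p = 0.014 and 0.036). Both calls were lost without the core of mouse 17 or the primary tumor of mouse 9, 10 or 38, and that of S100a9 also without the core of mouse 27 or the primary tumor of mouse 8. Over all 8 tissues, the Ccr7 level in naive T cells had means between 363 ± 55.6 CPM in Pre-MET lungs (n = 3) and 759 ± 711 CPM in metastases (n = 9), and single samples overlapped.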

How the data were processed

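Cells were sorted from mouse lung and tumor tissue into 148 plates of 384 wells, with 4 wells a plate left empty, and sequenced in 12 batches. The submitters' processing notes name bcl2fastq 2.15.0.4. Per the study's methods, the authors demultiplexed reads, mapped them with HISAT to mm10, left out multi-mapped reads, counted UMIs over exons, discarded cells under 500 UMIs and labeled cells by clustering. They named the clusters with a curated list of marker genes. The deposited files hold these UMI counts per gene and well, not normalized. The 8 members and all gene lists were chosen with earlier results of these data known.

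Of 24020 labeled cells, 595 (erythrocyte, outlier and tumor labels) were left out of the immune cells. Doublets were handled by the sorting gate, and no doublet caller was run. UMIs were pooled by label and tissue, or summed per mouse and tissue for all DCs and naive T cells (at least 10 cells) and cDC2 (at least 5). The sums were tested by edgeR's quasi-likelihood test (edgeR 4.0.16, R 4.3.3) over all tissues with TMM scaling, its filter on low counts and Benjamini-Hochberg adjustment at 0.05, in 8 comparisons. The test was also run on simulated data with known changes, and recovered a part of them, fewer for smaller changes. Exact intervals came from scipy 1.17.1, tables from pandas 2.3.3 and numpy 2.4.6 in Python 3.11.15, and figures from matplotlib 3.10.9.

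Named genes are the 8 members, list members with the highest levels in the DC label their list belongs to, and the 3 genes most like each member over labels (among genes with at least 100 UMIs). List genes that passed a test, and genes at 0 or low beside these, were named after their values were seen. No 2 samples had identical counts. In the labels, 3 mice gave both Pre-MET lung and primary tumor, and 7 gave naive T cells of both distal normal tissue and metastasis. The correlation of deviations from tissue means within a mouse averaged -0.0037 for the former and 0.12 for the latter. Alternatives were DESeq2 1.42.0, no filter, another minimum of cells, cells of at least 1000 UMIs, only the tissues compared, the mouse as a block and leaving out each sample.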

Additional observations from a re-analysis of the deposited data

Results flagged for a closer look

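Among the sums of all DCs, cDC2 and naive T cells, 25 groups of 4 to 10 samples were examined. Of these, 5 had a sample far from the rest by Dixon's criterion, each in sums of all DCs. Chance gives about 1 in 20 groups if values are normally distributed, which was not tested. Ccl22 in DCs of the metastasis of mouse 31 was 3159 CPM (196 UMIs in 14 DCs, 159 of them in 1 migDC), with the next metastasis at 1043 CPM. Ccr7 in the core of mouse 17 was 1611 CPM, with the next core at 585 CPM, and all 73 UMIs came from 1 cell. Cd209a in the core of mouse 28 was 1019 CPM (178 UMIs in 74 DCs), with the next at 301 CPM. Clec9a was 159 CPM in the metastasis of mouse 23 and 53.0 CPM in the core of mouse 36, on 2 and 3 UMIs.

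In cells outside the immune labels, Fscn1 stood at 133 CPM in tumor-labeled cells (69 UMIs in 15 of 94 cells), and Ccr7 at 97.2 CPM in erythrocyte-labeled cells (39 UMIs in 13 of 336 cells). Both were above the levels in neutrophil labels (0.391 and 3.91 CPM).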

How the results depend on the processing

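In 421 refits of 28 member differences, no member passed edgeR's or DESeq2's test (smallest adjusted p = 0.072, for Ccr7 between Pre-MET lung and primary tumor), and 10 changed direction, each on leaving out 1 sample. The counts of called genes moved more. With DESeq2 they were 23 between all DCs of primary tumor and core, 198 between Pre-MET lung and primary tumor, 15 between cDC2 of primary tumor and core, and 31 between naive T cells of primary tumor and core. Without the filter the same comparisons, without that of Pre-MET lung and primary tumor, gave 32, 10 and 33, and all DCs of distal normal tissue and metastasis 10, of control and Pre-MET lung 2, and naive T cells of distal normal tissue and metastasis 1. With another minimum of cells, all DCs gave 11 for distal normal tissue and metastasis, 2 for primary tumor and core and 75 for Pre-MET lung and primary tumor, cDC2 of primary tumor and core 4, and naive T cells of primary tumor and core 17. With only the 2 tissues fitted, the counts were 6 for all DCs, 7 for cDC2 and 5 for naive T cells of primary tumor and core, 419 for Pre-MET lung and primary tumor, and 2 for cDC2 of distal normal tissue and metastasis. The cause was not tested. With the mouse as a replicate block, 71 genes were called between Pre-MET lung and primary tumor. The block ended the call of Irf7 there (edgeR adjusted p = 0.15) and kept that of S100a8 (edgeR adjusted p = 0.030). S100a9 had no value in the fit with the block.

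Leaving out 1 sample at a time, the counts ranged from 0 to 2 (all DCs, distal normal tissue and metastasis), 0 to 13 (all DCs, primary tumor and core), 27 (without the Pre-MET lung of mouse 9) to 70 (Pre-MET lung and primary tumor), 0 to 3 (cDC2, primary tumor and core), 3 to 18 (cDC2, distal normal tissue and metastasis) and 2 to 30 (naive T cells, primary tumor and core), and were 0 throughout in the other 2 comparisons.
Member differences that changed direction spanned these log2 values. Between distal normal tissue and metastasis, Cd209a ran from -1.42 to 0.79 (without distal normal tissue of mouse 23), Ccl22 from -0.71 (without the metastasis of mouse 31) to 8.33, a fitted value against samples at 0 that is no bound, and Il4i1 from -1.92 to 1.24 (without distal normal tissue of mouse 17). Clec9a ran from -0.68 (without the core of mouse 36) to 1.39 between primary tumor and core, from -6.57 to 0.88 (without the control lung of mouse 2) between control and Pre-MET lung, and from -3.60 to 3.13 (without the Pre-MET lung of mouse 8) between Pre-MET lung and primary tumor. That last lung left out, Clec9a of Pre-MET lungs is at 0, so the fitted 3.13 is no bound. Without the Pre-MET lung of mouse 10, Ccr7 was -5.65 and Fscn1 -2.35 between control and Pre-MET lung, with highest values of 2.65 and 6.45. The 2 negative values are likewise fitted against Pre-MET lungs at 0. In naive T cells of primary tumor and core, Ccr7 ran from -0.050 (without the core of mouse 36; -0.018 without the primary tumor of mouse 10) to 0.52.

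Not run, since too few samples were left, were cells of at least 1000 UMIs in 6 comparisons and the other minimum of cells in 1, and the block in 2, which share 1 mouse. Depth limits the low members: Xcr1 and Flt3 passed no filter, and where a label of few cells has no UMI, a level of up to 3 UMIs remains possible.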
